A study of Mus musculus with 2 samples.

Results

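The 10 genes described here encode proteins that make, move, sense, degrade or recycle adenosine and other purines. They were chosen by their role in purine handling and by the FPKM values of these same 2 libraries, and each was found by its symbol in a deposited table of 22838 genes. All 10 had a row, and 8 of them were measured, meaning that their mean over both libraries was at least 1 FPKM (fragments per kilobase of transcript, scaled to library size). NIH3T3, an established line of mouse embryonic fibroblasts, was the cell in every sample. One library came from untreated cells and the other from cells given 100 µM ALA for 16 h, and no other allele or agent is stated for either group. The labels give ALA only as an abbreviation, which in work on heme means δ-aminolevulinic acid, and the study's title concerns SRRD, heme synthesis and circadian rhythms. As each group holds 1 library, no difference below can be checked against replicates, and p-values are not given.

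Adenosine is made outside cells from released ATP, which the ectoenzyme CD39 shortens to AMP and the ectoenzyme CD73 turns into adenosine. It can act on surface receptors or enter the cell through nucleoside transporters. Inside, adenosine kinase returns it to AMP, while adenosine deaminase turns it into inosine. Purine nucleoside phosphorylase splits inosine to hypoxanthine, and the phosphoribosyltransferases HPRT and APRT rebuild nucleotides from free bases. In cells short of oxygen the transcription factor HIF-1 is known to raise CD73 and the A2B receptor and to lower adenosine kinase and the transporter ENT1, as shown in human and mouse tissues.

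Ada, which encodes adenosine deaminase, stood apart from the other members. It was 3.97-fold higher in the ALA library, while Adk and Adora2b were modestly higher and Ampd3, Pnp and Aprt modestly lower. Hprt and Slc29a1 were nearly level, and the genes of both ectoenzymes, Nt5e and Entpd1, were at or near 0 in both libraries. Measured by log2((ALA FPKM + 1)/(untreated FPKM + 1)), the log2 ratio below, Ada was the 1 member of the 8 measured that stood at least 1.5-fold higher, and it also passed 2-fold. Among all 10929 measured genes, 5.90% passed 1.5-fold upward and 1.49% passed 2-fold upward. Counts past a fold use this scale throughout. In the other direction 0 of 8 passed 1.5-fold, against 7.16% of all measured genes, and 0 of 8 passed 2-fold, against 2.01%. The members were chosen with these values known, so their counts are given as a description. The median log2 ratio of the 8 was 0.03, beside -0.02 for all measured genes. Of all measured genes, 5222 were higher and 5707 lower with ALA, to be set beside the counts of direction below. The shares past 1.5-fold, 5.90% upward and 7.16% downward, are likewise to be set beside the fold counts below.

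The proximal promoters of 4 members are shown because 3 of these genes, Ada, Adk and Ampd3, had the largest log2 ratios in size, and the fourth, Adora2b, is the measured member best known as a HIF-1 target. Each runs from 250 bases before the annotated start to 50 bases after it, from RefSeq on GRCm38.p6, written 5′ to 3′ on the strand of the gene. Capitals mark the core letters of the HIF binding site, ACGTG or GCGTG, on either strand.
Ada: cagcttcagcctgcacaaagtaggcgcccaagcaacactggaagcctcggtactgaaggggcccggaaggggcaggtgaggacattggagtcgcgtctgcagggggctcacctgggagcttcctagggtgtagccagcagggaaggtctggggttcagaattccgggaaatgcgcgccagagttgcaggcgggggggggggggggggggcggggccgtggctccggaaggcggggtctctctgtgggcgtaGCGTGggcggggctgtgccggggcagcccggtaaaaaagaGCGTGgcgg
Adk: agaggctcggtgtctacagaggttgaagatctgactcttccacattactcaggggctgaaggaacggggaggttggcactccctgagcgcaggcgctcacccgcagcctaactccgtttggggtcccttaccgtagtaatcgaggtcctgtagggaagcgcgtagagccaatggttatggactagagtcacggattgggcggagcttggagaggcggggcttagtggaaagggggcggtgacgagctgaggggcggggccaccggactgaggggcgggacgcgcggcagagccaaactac
Adora2b: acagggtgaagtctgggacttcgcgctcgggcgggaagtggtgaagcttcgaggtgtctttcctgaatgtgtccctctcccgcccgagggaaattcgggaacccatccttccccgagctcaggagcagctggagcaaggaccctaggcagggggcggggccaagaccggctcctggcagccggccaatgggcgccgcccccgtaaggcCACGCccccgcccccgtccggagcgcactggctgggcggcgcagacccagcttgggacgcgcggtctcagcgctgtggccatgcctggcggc
Ampd3: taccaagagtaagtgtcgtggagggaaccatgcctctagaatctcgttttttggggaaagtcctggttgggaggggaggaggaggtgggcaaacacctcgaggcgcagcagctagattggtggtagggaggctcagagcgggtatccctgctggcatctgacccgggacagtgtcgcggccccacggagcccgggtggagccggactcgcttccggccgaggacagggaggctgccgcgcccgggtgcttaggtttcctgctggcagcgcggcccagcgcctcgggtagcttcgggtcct

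These windows lie at chr2:163750190-163750489 on the minus strand for Ada, chr14:21052324-21052623 for Adk, chr11:62248734-62249033 for Adora2b and chr7:110768372-110768671 for Ampd3, the last 3 on the plus strand. The Ada window held 2 HIF cores, both in the transcribed part, beginning 2 and 42 bases into the transcript. The Adora2b window held 1 core, upstream of the start, and the Adk and Ampd3 windows held none. Over all 10 members, 5 windows held a HIF core, namely those of Ada, Aprt, Nt5e, Entpd1 and Adora2b, and so did 43.8% of the 32851 promoter windows of the table. The core of the antioxidant response element to which NRF2 and BACH1 bind, TGACNNNGC on either strand, was in the window of Slc29a1 alone among the members, and in 12.4% of all windows. The GC box GGGCGG on either strand was in 8 of the 10 windows, missing from those of Entpd1 and Ampd3, and in 35.7% of all windows. Where a gene had several windows, the one nearest the outer end of its deposited locus was used. The shares over all windows count every window of every gene, so they are not drawn from a like set. A match in letters is a description and does not show binding.

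**Figure D1:**
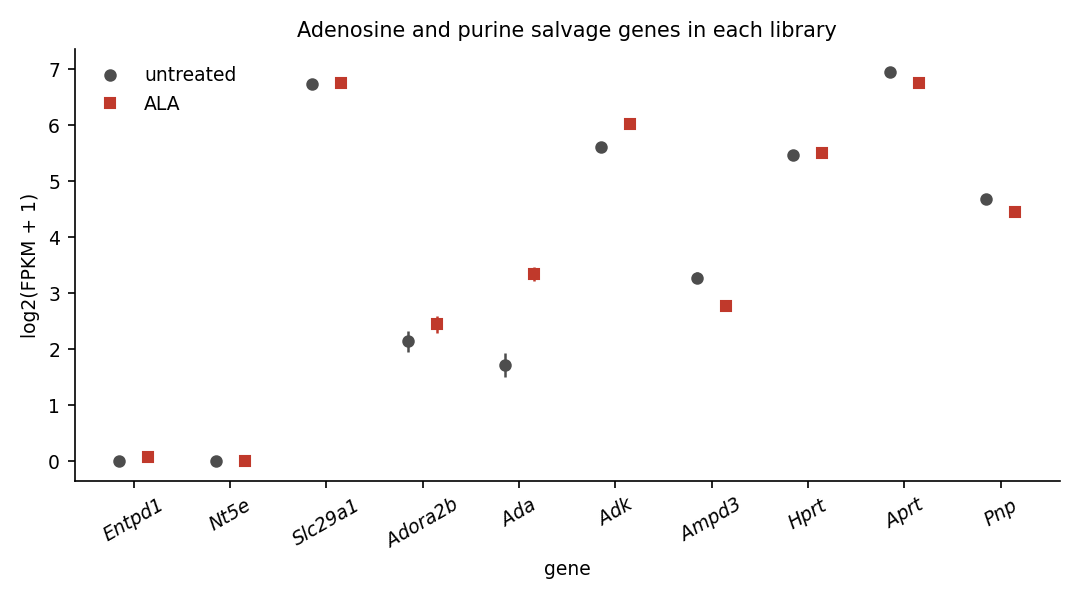
Level of each of the 10 genes, as log2(FPKM + 1) on the vertical axis, in the untreated library (grey circles) and the ALA library (red squares). Vertical lines, mostly shorter than the symbols, are approximate 95% counting intervals. Ada is the pair farthest apart, and Entpd1 and Nt5e lie at the bottom in both libraries.

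The level of Ada was 2.30 FPKM untreated against 9.16 FPKM with ALA, about 86 and 462 reads. The ALA library was thus the high one, by a log2 ratio of 1.62, and the plain ratio of 3.97 had an approximate 95% counting interval of 3.16 to 5.08. Intervals and floors here cover counting error only, since PCR copies without molecular identifiers are not independent molecules, and they rest on a depth estimated from the spacing of low values. Ada ranked 43 from the highest among the 10929 measured genes. For the 4498 genes whose mean lay between 5 and 20 FPKM, as that of Ada did, the middle 95% ran from -0.83 to 0.77 in log2 ratio. The mean of Ada, 5.73 FPKM, reached that range only through the ALA library. For the 2322 genes with a mean between 1 and 5 FPKM, where the untreated level of Ada lay, the middle 95% was wider, from -1.29 to 1.19.

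In GENCODE on GRCm38, Ada is a minus-strand gene of chromosome 2, from 163726584 to 163750239, with a transcript of 1688 bases in 12 exons. None of the 41-base stretches of that transcript, the length of the reads, occurred in an annotated transcript of another gene, and no exon base lay in another gene of the table. The nearest measured neighbours did not share its difference. Pkig, which encodes a protein kinase inhibitor and ends 413 bases from the Ada locus, had 34.6 FPKM untreated and 29.2 FPKM with ALA, and Wisp2 on the other side had 65.7 and 53.8 FPKM. Over the 6 nearest measured neighbours, 3 on each side, log2 ratios ran from -0.28 for Wisp2 to 0.30 for 0610039K10Rik. Adal, a deaminase-like relative of Ada, was listed at 0 in both libraries.

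**Figure D2:**
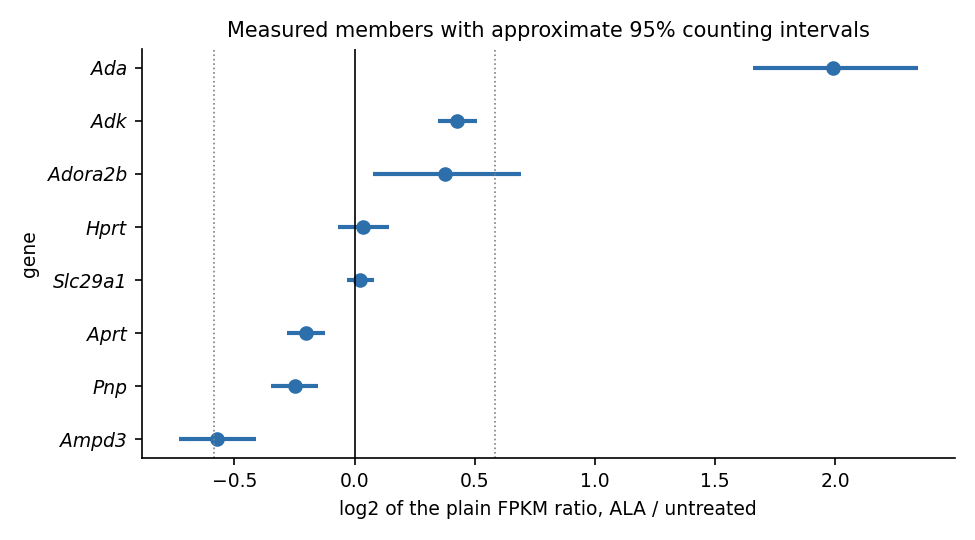
Plain FPKM ratio of the ALA to the untreated library, on a log2 axis, for the 8 measured members, with approximate 95% counting intervals as horizontal lines. Dotted lines mark 1.5-fold either way. The Ada interval lies wholly above the upper line, and the intervals of Hprt and Slc29a1 hold 0.

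Adk, the gene of the kinase that competes with adenosine deaminase for adenosine, had 47.8 FPKM untreated and 64.3 FPKM with ALA. It was 1.34-fold higher in the ALA library, with a counting interval of 1.27 to 1.42 and a log2 ratio of 0.42. It lies on the plus strand of chromosome 14 from 21052574 to 21448569 and shared no 41-base stretch with another gene. Within the untreated library the Ada level was 4.82% of the Adk level per transcript length, and within the ALA library it was 14.2%. Adk was therefore the more abundant transcript in both libraries, and the gap was narrower in the ALA library.

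Ampd3, one of the genes of AMP deaminase, which turns AMP into IMP, had 8.67 FPKM untreated and 5.83 FPKM with ALA. It was the lowest member in the ALA library relative to the untreated one, 1.49-fold lower on the plain scale, with a log2 ratio of -0.50. The counting interval of the ALA to untreated ratio was 0.60 to 0.75. Ampd3 lies on the plus strand of chromosome 7 from 110768206 to 110812405 and shares 4.76% of its exon bases with Rnf141. Ampd2, the other AMP deaminase gene measured, had 13.8 and 11.9 FPKM and a log2 ratio of -0.20, so that Ampd3 stood at 62.9% of the Ampd2 level untreated and at 49.2% with ALA. Ampd1, the muscle form, was listed at 0 in both libraries.

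The salvage enzymes differed less between the libraries. Hprt, the gene of the enzyme that rebuilds IMP and GMP from hypoxanthine and guanine, had 43.3 FPKM untreated and 44.4 FPKM with ALA. The counting interval of its ratio, 0.95 to 1.10, held 1. Aprt, the gene of the enzyme that rebuilds AMP from adenine, had 122 FPKM untreated and 106 FPKM with ALA, and was 1.15-fold lower in the ALA library. Pnp, the gene of purine nucleoside phosphorylase, had 24.7 FPKM untreated and 20.8 FPKM with ALA, and was 1.19-fold lower. The ratio intervals of Aprt and Pnp, 0.82 to 0.92 and 0.79 to 0.90, lay below 1, but both log2 ratios, -0.20 and -0.24, were well inside the middle 95% of the 3760 genes between 20 and 200 FPKM, which ran from -0.66 to 0.56.

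Pnp has a tandem copy, Pnp2, with which it shares sequence, so the split of reads between them is uncertain. Of the 41-base stretches of the Pnp transcript, 29.9% also occur in other annotated transcripts, mostly those of Gm49342, a gene model that overlaps both. For genes of the deposited table the share is 17.3%, most of it with Pnp2, and 37.6% of the stretches of Pnp2 occur in Pnp. Pnp2 was at 3.81 and 2.64 FPKM, and its log2 ratio was -0.40. Summed, the pair had 28.5 and 23.4 FPKM, a log2 ratio of -0.27. Hprt lies on chromosome X from 52988137 to 53021659 and Aprt on chromosome 8 from 122574635 to 122576909, and neither shared sequence with another gene of the table.

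Slc29a1, the gene of the equilibrative nucleoside transporter ENT1, had 106 FPKM untreated and 107 FPKM with ALA. The libraries were nearly level, with a plain ratio of 1.02 and a counting interval of 0.98 to 1.06. It is a minus-strand gene of chromosome 17, from 45585200 to 45599606, and 9.01% of its 41-base stretches occur in other annotated transcripts, none of them of genes in the table. It made up 92.4% of the summed FPKM of 7 nucleoside transporter genes untreated and 93.2% with ALA. Slc29a3, the lysosomal and mitochondrial family member, had 7.22 and 6.84 FPKM, and Slc29a2, which encodes ENT2, fell short of the minimum at 0.88 and 0.75 FPKM. The concentrative transporters Slc28a1, Slc28a2 and Slc28a3 were all below 1 FPKM in both libraries.

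Adora2b, the gene of the low-affinity adenosine receptor A2B, had 3.43 FPKM untreated and 4.45 FPKM with ALA, about 140 and 246 reads. It was 1.30-fold higher with ALA, with a wide counting interval of 1.06 to 1.62. Its log2 ratio of 0.30 was well inside the middle 95% of genes between 1 and 5 FPKM, which ran from -1.29 to 1.19. The gene lies on the plus strand of chromosome 11 from 62248984 to 62266453. Adora2b was the only one of 4 adenosine receptor genes that was measured, and it made up 99.6% of their summed FPKM untreated and 98.2% with ALA. Adora1 was listed at 0 untreated and at 0.079 FPKM with ALA, Adora2a at 0.014 and 0 FPKM, and Adora3 was near 0 in both.

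The ectoenzyme genes were not measured. Nt5e, which encodes CD73, was listed at 0 FPKM in both libraries, and Entpd1, which encodes CD39, at 0 FPKM untreated and at 0.050 FPKM with ALA, about 4 reads. No fold is given for either. If these zeros stand for no reads, a floor of 3 reads per library allows Nt5e up to 0.034 FPKM untreated and 0.025 FPKM with ALA, and Entpd1 up to 0.056 FPKM untreated. Nt5e lies on chromosome 9 from 88327197 to 88372092 and Entpd1 on chromosome 19 from 40612366 to 40741602. The CD39 relatives Entpd2 and Entpd8 were listed at 0 in both libraries, Entpd3 at 0 and 0.0097 FPKM, and tissue-nonspecific alkaline phosphatase, Alpl, had 0.045 and 0.14 FPKM. The measured genes of extracellular nucleotide breakdown were those of the ENPP family, which cleave nucleotides or lysophospholipids. Enpp3 had 7.38 and 6.35 FPKM (log2 ratio -0.19), Enpp2, the autotaxin gene, 2.55 and 2.85 FPKM (0.12), and Enpp1, which makes AMP and pyrophosphate from ATP, 1.86 and 2.54 FPKM (0.31).

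In order of level per length, the untreated library ran Aprt, Slc29a1, Adk, Hprt, Pnp, Ampd3, Adora2b and Ada, followed by Nt5e and Entpd1 at 0. The counting intervals of Adk and Hprt overlapped, and those of the other neighbours in the order did not. In the ALA library Slc29a1 and Aprt came first with overlapping intervals, then Adk, Hprt, Pnp, Ada, Ampd3 and Adora2b, whose intervals did not overlap with those of their neighbours. Ada thus stood at place 8 untreated and at place 6 with ALA, there above Ampd3 and Adora2b.

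**Figure D3:**
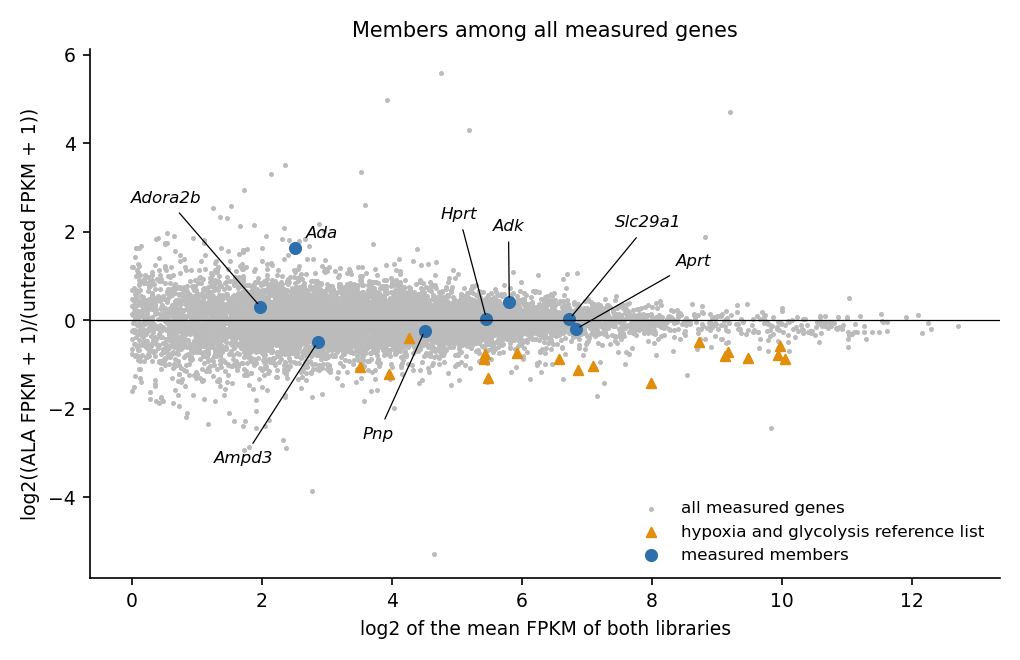
Log2 ratio (vertical) against the log2 of the mean FPKM (horizontal) for the 10929 measured genes (grey), the 8 measured members (blue) and the 18 measured genes of a hypoxia and glycolysis list (orange triangles). Ada at 1.62 lies above the bulk of genes of its level, the other 7 members lie between -0.50 and 0.42, and the orange genes all lie below 0.

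Hypoxia-linked members were set beside a list of common HIF-1 target genes. With ALA all 18 measured genes of that list were lower, 16 past 1.5-fold, and their median log2 ratio was -0.86. Of the members that HIF-1 is known to raise, Adora2b was higher, at 0.30, and Nt5e could not be compared. Of those that it is known to lower, Adk was higher, at 0.42, and Slc29a1 was level, at 0.02. These are single values from 1 library each, and whether the members follow the reference list was not tested. Ak4, a mitochondrial adenylate kinase gene and a known HIF-1 target, went the way of that list, with 35.5 FPKM untreated, 17.4 FPKM with ALA and a log2 ratio of -0.99. Of its 41-base stretches 11.9% occur in other annotated transcripts, mostly the pseudogene Ak3l2-ps.

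**Figure D4:**
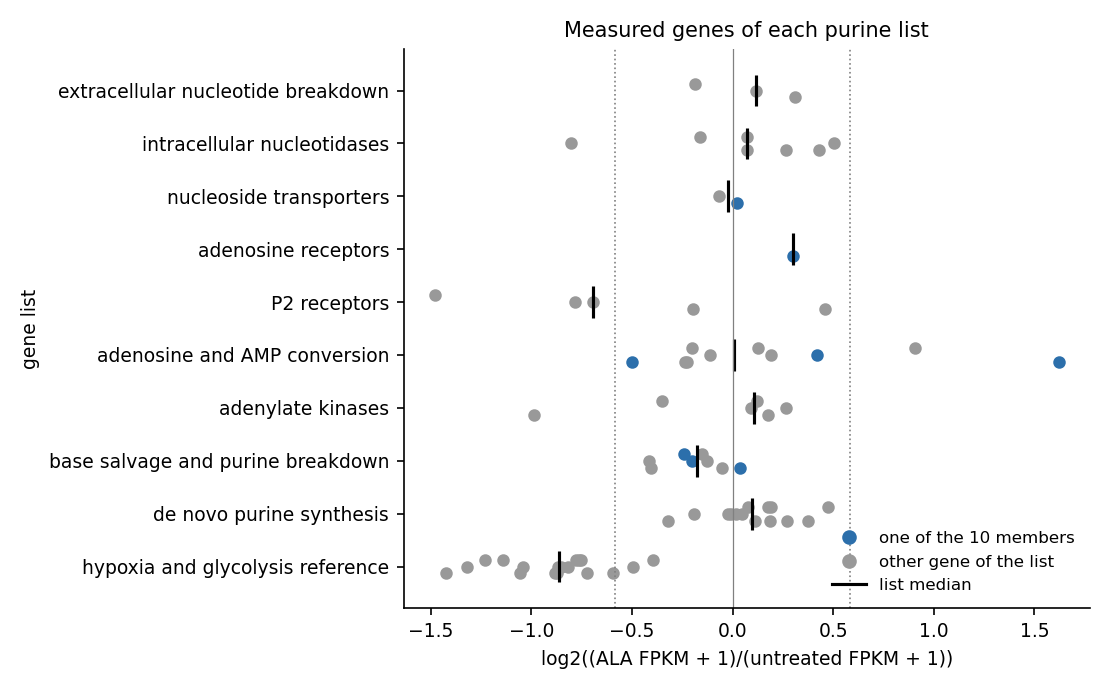
Log2 ratio of each measured gene (points) in 9 lists of purine genes and the hypoxia and glycolysis reference list, with members in blue, other genes in grey and the list median as a black bar. Dotted lines mark 1.5-fold either way. Of the purine genes, Ada and Dck lie to the right of the upper line, and Ak4, Nt5c3 and 3 P2 receptor genes to the left of the lower line. Of the reference list, 16 genes also lie to the left of the lower line.

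The rest of the purine network was summarised from textbook lists. Over all lists without the members, 80 genes were in the table and 48 were measured. Of these, 25 were higher and 23 lower, and the median log2 ratio was 0.03. Downward, 5 passed 1.5-fold, against 7.16% of all measured genes, and upward 1 passed it, against 5.90%. The 1 higher gene was Dck, which encodes deoxycytidine kinase, an enzyme that also phosphorylates deoxyadenosine and deoxyguanosine. Its level was 14.8 FPKM untreated and 28.6 FPKM with ALA, and the plain ratio of 1.93 had a counting interval of 1.80 to 2.08 (log2 ratio 0.91). Ada and Dck had the highest log2 ratios of the 10 measured genes of adenosine and AMP conversion. Dguok, the mitochondrial deoxyguanosine kinase gene, was at -0.24, Ahcyl2 at -0.23 and Mtap, which recycles methylthioadenosine, at -0.11. Ahcy, whose enzyme releases adenosine from S-adenosylhomocysteine, was at 0.19, but 78.2% of its 41-base stretches occur in other annotated transcripts.

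De novo purine synthesis genes differed little. Of 14 measured genes, 10 were higher and 4 lower, none by 1.5-fold, and the median was 0.10. With equal FPKM totals Prps2 and Ppat turned from lower to higher. Gart, a trifunctional enzyme of the early steps, was farthest up at 0.47 (11.2 and 16.0 FPKM), followed by Pfas, which acts between the GART steps, at 0.37. Gmps, the GMP synthetase gene, was farthest down at -0.32 (21.6 and 17.0 FPKM).

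Base salvage and purine breakdown genes were lower in 7 of 8 cases, with Hprt the 1 exception and a median of -0.18, none of them by 1.5-fold. Of all measured genes, 47.8% were higher. With equal FPKM totals Gmpr2 turned from lower to higher, leaving 6 of 8 lower. Xdh, which encodes xanthine oxidoreductase and finishes purine breakdown to uric acid, had the largest difference of the list, from 97.4 to 72.8 FPKM, a log2 ratio of -0.42. Gmpr, a GMP reductase gene, was at -0.15, and its relative Gmpr2 at -0.05, with 60.3% of its stretches shared with other genes, mostly Tinf2. Guanine deaminase, Gda, was below the minimum, at 0.58 and 0.15 FPKM. Uox, the urate oxidase gene, was listed at 0 in both libraries.

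Intracellular nucleotidase genes, whose enzymes remove phosphate from nucleotides, included 7 measured genes, 5 higher and 2 lower, with a median of 0.07. Nt5c3, whose product prefers pyrimidine nucleotides, was the only one past 1.5-fold, at 20.3 FPKM untreated, 11.2 FPKM with ALA and a log2 ratio of -0.80. Entpd6, a nucleoside diphosphatase of the secretory pathway, was at 0.50 and Nt5m, the mitochondrial deoxyribonucleotidase gene, at 0.43. Entpd4 was listed at 0 in both libraries, and 100% of its stretches occur in other annotated transcripts, mostly those of Entpd4b. Of 6 measured adenylate kinase genes, 4 were higher and 2 lower, with a median of 0.11. Beside Ak4, Ak6 was at -0.35.

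The P2 receptors sense ATP and other nucleotides upstream of adenosine formation. Of 15 listed genes, 5 were measured, 4 of them lower and 1 higher, with 3 of the lower ones past 1.5-fold. P2rx7, the ATP-gated channel gene, went from 3.06 to 0.46 FPKM, with a log2 ratio of -1.48. That is about 48 and 10 reads on its shortest RefSeq-matched transcript, of 712 bases. The longest has 4936 bases and would give more reads. P2ry6, a UDP receptor gene, had 1.59 and 0.51 FPKM (-0.78) and P2rx6 3.25 and 1.63 FPKM (-0.69). P2rx7 and P2ry6 reached the minimum mean only through their untreated value. P2ry14, a receptor gene for UDP sugars, went the other way and stayed below the minimum, listed at 0 untreated and at 1.30 FPKM with ALA, about 63 reads. Without the minimum, 6 of the 15 were higher and 6 lower, with a median of 0. The list median of -0.69 became 0.13 over the 2 receptors whose mean reached 5 FPKM. The 1 measured receptor gene that was higher was P2ry2, a receptor for ATP and UTP, at 0.46 (6.15 and 8.82 FPKM), while P2rx4 was at -0.20. P2rx7 and P2ry6 are also macrophage genes, and 2 of the 3 measured markers of macrophages and blood cells were lower with ALA. Over all 12 markers the summed level was 29.5 FPKM untreated and 18.2 FPKM with ALA. The sum hides opposite differences, as Cd68 had 0.24 and 1.40 FPKM and Ptprc 0.37 and 0.75 FPKM. The macrophage markers Csf1r and Emr1 were at 0 and 0.047 FPKM and at 0 and 0.011 FPKM. Gata1 and Cd3e were listed at 0 in both. Both libraries are labelled as the NIH3T3 line, and no other cell type is named. Whether other cells were present, or had a part in the P2 values, was not tested. In bulk RNA, fewer cells of a type and less RNA per cell cannot be told apart.

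Both libraries carried fibroblast markers, with all 10 of the list measured and S100a4 highest at 4976 and 4717 FPKM. For 9 of these 10 the ALA library held the lower level, and the list median was -0.20, with Pdgfra (-0.64) and Thy1 (-0.62) past 1.5-fold. With equal FPKM totals 8 were lower, S100a4 turned higher and none passed 1.5-fold. The part of these markers in the members' values was not tested. None of 5 endothelial markers reached the minimum, and of these Pecam1 had 0.13 FPKM untreated and 0.75 FPKM with ALA, about 8 and 67 reads. Of the epithelial list, Epcam and Krt18 were listed at 0 in both libraries, while Krt14 had 84.2 and 114 FPKM. Cd14 and Lyz2 were the highest blood cell markers untreated, Cd14 at 13.1 and 4.69 FPKM and Lyz2 at 15.2 and 9.59 FPKM. Estimated depth was 22200000 reads untreated and 29900000 with ALA, and the FPKM values summed to 540963 and 512324.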

How the data were processed

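Messenger RNA of NIH3T3 cells, in 2 libraries, 1 per group, was sequenced as single-end reads of 41 bp, per the labels' protocols. The authors deposited FPKM values per gene in a Cufflinks tracking table, per the file headers. FastQC 0.11.5, TopHat2 2.1.1, Cufflinks 2.2.1 and mm10 are named in the submitters' processing notes. The sources used here do not give the annotation, the strand setting or how the libraries were scaled. The deposited FPKM interval bounds were equal in 100% of rows and carried no error.

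Log2 ratios used a pseudocount of 1 FPKM, which understates low genes, and a minimum mean of 1 FPKM. No test was possible with 1 library per group. The spacing of low FPKM values in single-transcript genes gave an estimated depth of 22200000 reads untreated (21300000 to 23100000 gave nearly as good a match) and 1.35 times as many with ALA. Reads per gene used the shortest RefSeq-matched GENCODE vM21 transcript, and ratio intervals were exact conditional (Clopper-Pearson) intervals at 95%. Shared 41-base stretches were searched over all GENCODE transcripts on both strands, with the longest RefSeq-matched transcript. The procedure was tested on simulated counts. Python 3.11.15, pandas 2.3.3 and scipy 1.17.1 were used.

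The members and lists were chosen with earlier results of these data known. Genes named are the members, the 3 largest log2 ratios of each purine list, any gene of those lists at least 1.5-fold apart, close paralogs and the highest marker of each list. The reference list is given by counts, and 1 gene that this rule names is not reported here. Other genes were named after their values were seen. Alternatives were other pseudocounts, scalings and filters, and the sum of Pnp and Pnp2, the last chosen after seeing the data.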

Additional observations from a re-analysis of the deposited data

How the results depend on the processing

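Of 122 values recomputed under other settings, 115 stayed within a window around the reported value. For a gene the window had the width of its counting interval, centred on its log2 ratio. For a median it was the binomial interval, which in short lists is the full range of the genes and so is seldom left. For a count it was 1.5 times the count. A pseudocount of 5 FPKM gave log2 ratios of 0.955 for Ada and -0.336 for Ampd3, and 0 members at least 2-fold higher, because a larger pseudocount shrinks the ratios of low genes. With equal FPKM totals, which raise the ratios of most genes, Slc29a1 was at 0.102 and the medians of nucleoside transporters and adenylate kinases were 0.051 and 0.177. With a mean of at least 5 FPKM the P2 receptor median was 0.131, over fewer genes. No paired analysis was possible because each group holds 1 library, and for the same reason no library could be left out. Variation between cultures was not measured, and low members such as Ada untreated, with about 86 reads, are limited by depth.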
